A study of Mus musculus with 66 samples.

Results

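Plasma miRNAs with the names miR-6896 to miR-7094 were examined in 13 male C3H mice, 8 with hepatocellular carcinoma (HCC) and 5 without it (non-HCC). This run of numbers was given to hairpins that mostly lie at the ends of introns, so that it is rich in mirtrons. The members were selected on their detection. An entry was kept if it had at least 10 unique molecular indices (UMIs) in at least 5 of the 13 mice, whichever the group, and 274 of the 387 entries listed with these numbers met the rule. The table holds 1826 miRNAs in all. Another 112 entries were found in fewer than 5 mice, and miR-7072-5p is left out by the rule. The 274 members come from 185 hairpins, 89 with both arms, 80 with the 5p arm only and 16 with the 3p arm only.

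C3H is an inbred strain prone to liver tumors. The labels place the blood of all 13 mice more than 12 months after irradiation and give no dose and no age. By the study's methods the HCC group holds 5 spontaneous and 3 radiation-induced tumors, which the labels do not separate. The methods do not state for each mouse whether it was irradiated. The wording of the labels therefore does not settle this for the non-HCC mice or for the spontaneous tumors. Blood was drawn by cardiac puncture at necropsy. A second table holds 53 columns of repeated blood samples, by the labels from 15 F2 mice of both sexes, the second generation of crosses of BALB/c females with C3H males, all irradiated and labelled HCC, with blood drawn 1, 6, 12 or 18 months after irradiation. The names of these columns match no label, so they are described only as a group without time points, and columns of 1 mouse are not separate animals.

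A mirtron is a short hairpin cut out of a gene by splicing and not by the nuclear enzyme Drosha. A whole-intron mirtron is an intron that folds on itself. A tailed mirtron reaches only 1 splice site and has an overhang on the other side that is trimmed away. In both kinds Dicer then cuts the hairpin into a 5p and a 3p arm, and the arm loaded on Argonaute represses messages that pair with its seed, the bases 2 to 8. Mirtrons are known as weakly expressed and poorly conserved miRNAs, and their level depends on the transcription and splicing of the host gene.

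The hairpins bear the marks of this class. RefSeq (GRCm38.p6) holds 164 hairpins with a member, and 153 of them (93.3%) end within 2 bases of the 3′ end of an intron of a protein-coding gene in the GENCODE M21 annotation. Of these, 10 take up a whole intron. Another 4 start at the 5′ end of an intron, 1 lies inside one and 6 lie outside introns. Among 824 hairpins with other names, 36 (4.37%) share an end with an intron, against 157 (95.7%) here. The introns had a median length of 484.5 bases and belonged to 157 host genes. Hairpins of the 3 kinds of place are given with the mature arms in capitals. Mir6909 (chr10:79531029-79531090, minus strand) lies at the 3′ end of an intron of Plpp2, a lipid phosphatase, and gave the most UMIs of the class. Mir7045 (chr6:125097024-125097086, plus strand) lies at the 3′ end of an intron of Chd4, a chromatin remodeler, and Mir6945 (chr13:55507625-55507692, minus strand) at that of an intron of Pdlim7. Mir7080 (chr8:123130106-123130172, plus strand) is a whole intron of Cpne7. Mir6927 (chr11:97677060-97677130, plus strand) starts an intron of Mllt6.
Mir6909: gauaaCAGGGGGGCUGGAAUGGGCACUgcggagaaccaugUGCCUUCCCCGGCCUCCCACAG
Mir7045: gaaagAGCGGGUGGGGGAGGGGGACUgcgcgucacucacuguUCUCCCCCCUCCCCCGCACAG
Mir6945: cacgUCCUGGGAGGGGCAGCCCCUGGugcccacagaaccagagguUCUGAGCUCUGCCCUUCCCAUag
Mir7080: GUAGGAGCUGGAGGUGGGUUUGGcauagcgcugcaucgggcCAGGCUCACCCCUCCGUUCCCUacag
Mir6927: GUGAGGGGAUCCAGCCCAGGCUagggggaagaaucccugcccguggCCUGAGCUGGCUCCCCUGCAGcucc

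Introns begin with GU and end with AG, preceded by a run of C and U. A 3′ end in AG was found on 153 of the 164 hairpins (93.3%) and on 8.50% of the others. Among mature 3p members with a RefSeq sequence, 72 of 93 ended in AG (77.4%), against 11.0% of 480 other 3p miRNAs, and C and U made up a median of 72.7% of their bases against 54.5%. The 152 mature 5p members had a median G content of 45.5% against 27.3% in other 5p miRNAs. The arms thus differ from each other in base content, with G-rich 5p and pyrimidine-rich 3p arms. These are descriptions of the names listed and not of their levels.

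A RefSeq mature sequence was found for 245 of the 274 members. Of these, 243 had 1 locus in RefSeq. The most abundant members with 1 locus are shown first, with the seed in capitals, since the levels of the class turn on them. miR-6967-3p, also high in UMIs, is not among those with 1 locus and is not shown.
miR-6909-5p: cAGGGGGGcuggaaugggcacu
miR-7045-3p: uCUCCCCCcucccccgcacag
miR-6945-3p: uCUGAGCUcugcccuucccau
miR-7015-5p: uCUGUGCAguaggcuguggguuc
miR-6960-5p: cAGGAUGAgaagaguuuggcug
miR-6988-3p: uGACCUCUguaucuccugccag
miR-7080-3p: cAGGCUCAccccuccguucccu

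The next sequences are those of members called higher in HCC mice. Of these, miR-6897-5p and miR-6909-3p had no UMIs listed in any non-HCC mouse. They met the filters through the HCC mice alone and had to differ, so their calls are a description only. miR-6909-3p is the other arm of the most abundant hairpin.
miR-6897-5p: uGGGGGCAgugucacacgcuguu
miR-7056-5p: uGUGGAGGaggacagagagguu
miR-6939-3p: cCUCACUUgacccgcugcag
miR-6912-5p: uACAGGGAgggugcucaggcag
miR-6927-3p: cCUGAGCUggcuccccugcag
miR-6909-3p: uGCCUUCCccggccucccacag

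Most members had a seed of their own within the class. Of the 245 members with a sequence, 33 shared a seed with another member, over 16 seeds. The seed CUGAGCU stands in miR-6945-3p and miR-6927-3p, shown above, and 1 seed, GUGGGAG, was held by 3 members.
miR-7008-5p: uGUGGGAGaugccaggagccguac
miR-6993-5p: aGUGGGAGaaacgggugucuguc
miR-6922-5p: uGUGGGAGgggacuguagagagg

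The miRNA UMIs of a mouse summed to 9513136 to 14247488 in the HCC group and 10467560 to 13962539 in the non-HCC group. No value from 1 to 9 occurs in the table, so that 0 stands for fewer than 10 UMIs and a miRNA is called found at 10 or more. HCC mice 1 and 6, 2 and 5, and 3 and 7 formed pairs of similar libraries, with r of at least 0.997 over the log2 UMIs of 318 miRNAs against at most 0.993 in any other pair. They differed beyond counting error, with a chi-square of 81.2 to 212 per degree of freedom. This value was not computed for other pairs and cannot tell separate mice from repeated libraries of 1 mouse. Each library was kept as a sample by its label. Over the members alone the Spearman rho of these pairs was 0.53, 0.72 and 0.76, with 0.71 as the highest value of another pair. Results are also given with each of these pairs summed to 1 library. The mice are separate animals by their labels.

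The class was broad and low. Over 3562 entries of 274 members in 13 mice, 25.7% were at 0, 39.4% held 10 to 19 UMIs and 3.23% held 100 or more. UMIs summed over the 13 mice had a median of 191.5 per member, from 55 to 23445, against a median of 420.0 in the 1177 other miRNAs tested. A level of 100 UMIs was reached at least once by 36 members. miR-6909-5p alone made up 22.2% of the 105545 UMIs of the class, and the 5 leading members made up 36.8%. Found in all 13 mice were 72 members (26.3%), against 53.3% of the other miRNAs tested.

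The minimum of 5 mice divided the low members from those left out. The 29 members found in exactly 5 mice include miR-6923-3p, found in 5 HCC mice with 11 to 75 UMIs, miR-7081-3p, found in 3 HCC and 2 non-HCC mice with 10 to 77 UMIs, and miR-7054-3p, found in 4 HCC mice and 1 non-HCC mouse with 10 to 66 UMIs. Just outside were 28 entries found in 4 mice. Among them miR-6942-5p had 103 UMIs in HCC mouse 6 and 10 to 19 in 3 other mice, miR-7061-5p had 11 to 58 UMIs in 4 HCC mice, and miR-6907-3p had 35 UMIs in HCC mouse 6 and 11 to 16 in 3 others. Each of these was low in most mice on both sides of the limit.

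Members were found in numbers that followed the total number of miRNAs found. In the HCC mice 124 to 269 members were found, with a median of 212 and a mean of 208 ± 52.6 (SD, n = 8). The non-HCC mice had 213, 225, 184, 176 and 183, with a mean of 196 ± 21.5 (SD, n = 5). The HCC mice held both the lowest and the highest numbers, and the groups overlapped. HCC mice 2 and 5, a similar pair, had the fewest members, 124 and 153, and also the fewest miRNAs in all, 948 and 1062. HCC mice 4, 6 and 8 had the most members, 269, 252 and 261, and the most miRNAs in all, 1694, 1463 and 1512. Members made up 13.1 to 17.3% of all miRNAs found in an HCC mouse and 15.4 to 16.6% in a non-HCC mouse. Since detection chose the members, these numbers are a description without a test.

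**Figure D1:**
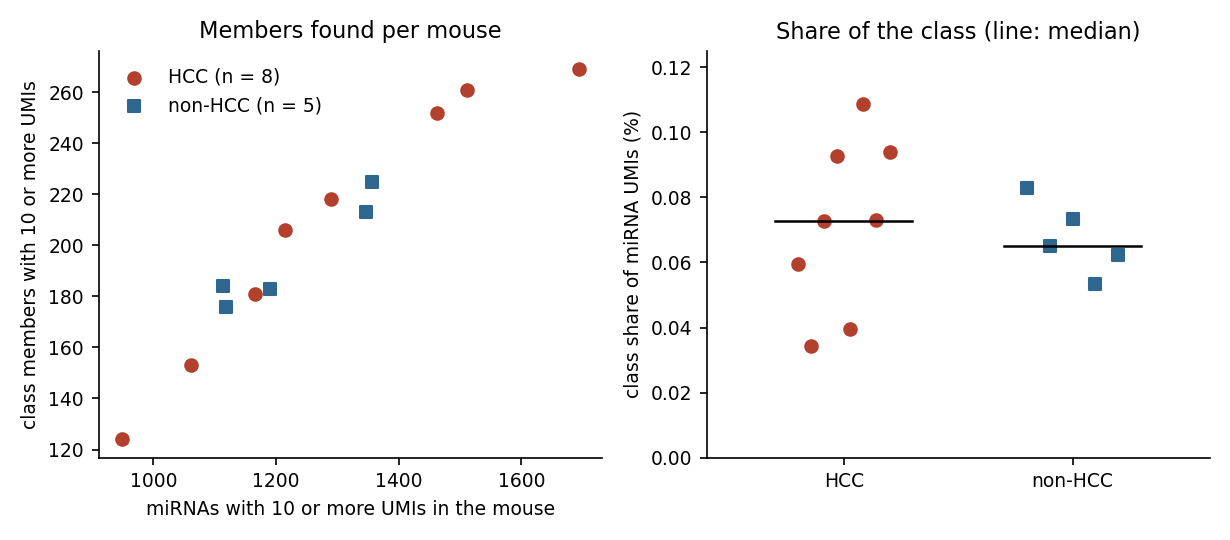
Left, class members with 10 or more UMIs (y) against all miRNAs with 10 or more UMIs (x), 1 point per mouse, and right, the class share of the miRNA UMIs of each mouse in percent, with the median as a line. The HCC mice (circles, n = 8) run from 124 to 269 members and enclose the non-HCC mice (squares, n = 5), which lie between 176 and 225.

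Of all miRNA UMIs of a mouse, the class held 0.0343 to 0.109% in HCC mice, with a median of 0.0727%. In the non-HCC mice it held 0.0829%, 0.0652%, 0.0734%, 0.0535% and 0.0622%, with a median of 0.0652%. The groups overlapped, and both the lowest and the highest share were in HCC mice. Per 1000 UMIs of the spike-in mean, the class gave 17.3 to 74.0 UMIs in HCC mice, with a median of 40.9, and 24.2 to 47.6 in non-HCC mice, with a median of 24.7. The spike-in mean itself spread widely, with 83039 as the lowest and 469953 as the highest value of the HCC group. The non-HCC group had 182485 and 366298.5 as its limits. Raw class UMIs had a lower median in the HCC group, 8102 against 8689. How far the spike-in spread sets the ratio was not tested. Beside the class, 5 liver miRNAs took 4.14 to 51.8% of the miRNA UMIs in HCC and 0.908 to 1.15% in non-HCC mice. They were led by miR-122-5p, the main miRNA of hepatocytes. A list of 6 red cell miRNAs took 6.69 to 39.5% and 36.5 to 38.9%. Most of that came from miR-16-5p in each mouse, so it is not the share of miR-451a, miR-144 and miR-486a. The part of these lists in the class share was not tested. In plasma, fewer cells that release a miRNA and less released per cell cannot be told apart.

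Of the 8 members with the most UMIs, none passed edgeR's quasi-likelihood test between the groups, and 1, miR-7015-5p, had an unadjusted p under 0.05. DESeq2 called miR-6909-5p lower with its own size factors (adjusted p = 0.0489) and miR-7015-5p higher with spike-in size factors (adjusted p = 0.0481). miR-6909-5p had 851 to 2264 UMIs in HCC mice, with a median of 1272, and 2272, 2190, 2430, 2239 and 3297 in non-HCC mice. All but 1 of the 8 HCC mice lay below each non-HCC mouse in raw UMIs. On the spike-in scale the log2 fold change of HCC over non-HCC was -0.31 ± 0.57 (SE, adjusted p = 0.893 in edgeR's quasi-likelihood test), and 0.09 without non-HCC mouse 5.

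miR-7045-3p, from the Chd4 intron, had 74 to 722 UMIs in HCC mice, with a median of 195, and 509, 377, 542, 498 and 444 in non-HCC mice. HCC mice 3 and 7, a similar pair, held the top values of 722 and 637, and the other HCC mice stayed below each non-HCC mouse. miR-6945-3p had 163 to 398 UMIs in HCC mice, with a median of 218, and 364, 419, 418, 411 and 562 in non-HCC mice. This gave a log2 fold change of -0.27 ± 0.57 (SE), and that of miR-7045-3p was -0.33 ± 0.57 (SE), with 0.906 and 0.883 as adjusted p in edgeR's quasi-likelihood test. HCC mice 3 and 7 were also the highest of the HCC mice in miR-6909-5p, miR-6945-3p and miR-7080-3p.

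miR-7015-5p went the other way in raw UMIs. It had 57 to 839 UMIs in HCC mice, with a median of 276.5, and 233, 195, 181, 140 and 236 in non-HCC mice. HCC mice 2, 4 and 5 stood above the rest with 839, 610 and 707 UMIs, while HCC mouse 3 was the lowest of all 13. The log2 fold change was 2.16 ± 0.87 (SE, adjusted p = 0.151 in edgeR's quasi-likelihood test). In raw UMIs 5 of the 8 HCC mice lay above the highest non-HCC mouse, and the groups overlapped.

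miR-6967-3p had 41 to 282 UMIs in HCC mice, with a median of 106.5, and 219, 327, 323, 224 and 233 in non-HCC mice. Its log2 fold change of -0.72 ± 0.53 (SE) did not pass edgeR's quasi-likelihood test (adjusted p = 0.556). miR-6960-5p, from Troap, a gene of the mitotic spindle, was even over all mice, with 83 to 150 UMIs in HCC and 94 to 165 in non-HCC mice. miR-6988-3p, from Syvn1, a ubiquitin ligase of the endoplasmic reticulum, had 64 to 160 and 75 to 104 UMIs. The whole-intron mirtron miR-7080-3p had 51 to 116 UMIs in HCC and 92 to 127 in non-HCC mice.

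**Figure D2:**
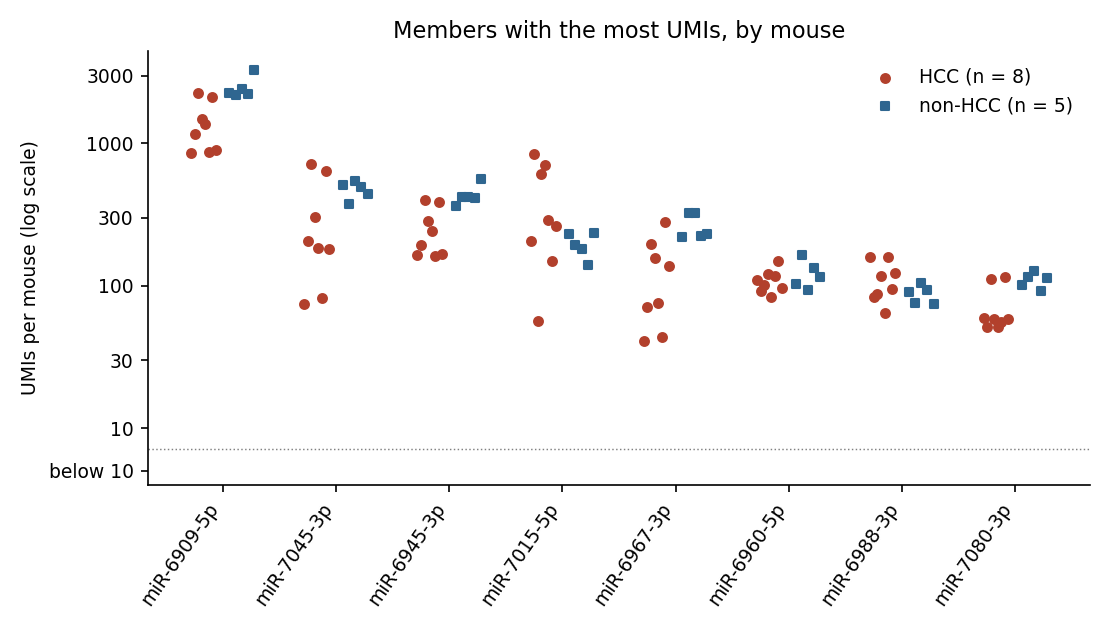
UMIs per mouse (log scale) of the 8 members with the most UMIs, with HCC mice as circles (n = 8) and non-HCC mice as squares (n = 5). For miR-6909-5p the HCC mice run from 851 to 2264 and the non-HCC mice from 2190 to 3297, whereas for miR-7015-5p the highest 3 values, 610 to 839, are of HCC mice.

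Over the class, 17 of 274 members (6.20%) passed the test as higher in HCC mice and none as lower, by edgeR's quasi-likelihood test on the spike-in scale at an adjusted p under 0.05. Over all 1452 miRNAs tested, 7.51% were called higher and 0.0% lower, so that the share of the class was near the background. Another 257 members were not called. At an unadjusted p under 0.05 there were 38 members (13.9%), all of them higher, against 19.3% of the miRNAs tested as higher and 0.207% as lower. The 17 were 8 of the 5p and 9 of the 3p arm. With edgeR on the TMM factors, which set the libraries by their bulk of miRNAs, 11 members were called higher and 1 lower, against 7.37% and 2.2% of all miRNAs tested. The lower one was miR-7052-3p, with a log2 fold change of -1.17 (adjusted p = 0.029 in edgeR's quasi-likelihood test). It had 24 to 90 UMIs in the HCC group and 98 to 163 in the non-HCC group, so that the groups did not overlap in raw UMIs, which held downward for this 1 member and for 1.38% of the miRNAs tested.

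The class as a whole moved with the table. The median log2 fold change was 0.75 over the members and 0.78 over all miRNAs tested. With the TMM factors these were 0.21 and 0.17, so the median of all miRNAs fell from 0.78 to 0.17 with the choice of scale. A fold change above 0 was fitted for 243 members (88.7%) and for 80.9% of the miRNAs tested, and one below 0 for 31. Under TMM factors 62.8% of the members were above 0. The 5p members had a median of 0.73 and the other 5p miRNAs tested 0.74, and for 3p the values were 0.76 and 0.93. These are values on the log2 scale, and no test was made over the list.

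A member could enter the class through the HCC mice alone, but through the non-HCC mice alone only if found in all 5. The counts that follow are therefore descriptions. Found in at least 4 HCC mice and at most 1 non-HCC mouse were 36 members (13.1%), against 7.51% of the miRNAs tested, and the reverse held for 1 member, against 0.275%. That member was miR-7073-5p, with 17, 12, 10, 0 and 11 UMIs in non-HCC mice and 55 UMIs in HCC mouse 8 but 0 in the other HCC mice. No non-HCC mouse had 10 UMIs of 12 members, and 9 of these 12 were among the 17 called, where over the table this held for 30 of the 1452 miRNAs tested and 22 of the 109 called higher. Of the 72 members found in all 13 mice, where this does not arise, 3 were called, against 64 of 699 miRNAs tested that were found in all mice. The 3 were miR-7031-5p, miR-6939-3p and miR-6950-5p.

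miR-6939-3p, from the 3′ end of an intron of the kinase gene Akt1, was the 1 member in which each HCC mouse lay above each non-HCC mouse on the spike-in scale, against 1.52% of all miRNAs tested. In raw UMIs this held for 2 members, miR-6939-3p and miR-6950-5p, against 3.24% of the miRNAs tested. It had 22 to 118 UMIs in HCC mice, with a median of 54, and 13, 15, 17, 12 and 14 in non-HCC mice. This gave a log2 fold change of 2.47 ± 0.63 (SE, adjusted p = 0.0198 in edgeR's quasi-likelihood test, and 0.0188 with the similar pairs summed). The highest values, 118 and 93 UMIs, came from HCC mice 1 and 6, a similar pair. No member had each HCC mouse below each non-HCC mouse on the spike-in scale, against 0.0% of the miRNAs tested.

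miR-6912-5p, from an intron of Scamp4, a membrane carrier protein, had 47 to 148 UMIs in HCC mice, with a median of 83, and 19, 53, 10, 0 and 11 in non-HCC mice. Only non-HCC mouse 2, with 53 UMIs, reached into the range of the HCC mice. The log2 fold change was 3.17 ± 0.86 (SE, adjusted p = 0.026 in edgeR's quasi-likelihood test). Its other arm, miR-6912-3p, was not called.

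miR-7056-5p, from an intron of the phosphatase gene Ptpn5, had 11 to 127 UMIs in HCC mice, with a median of 38.5, and 0, 16, 10, 0 and 0 in non-HCC mice. HCC mice 1, 6 and 8 were high, with 127, 106 and 89 UMIs, and HCC mice 3 and 7, with 11 and 12, were within the range of the non-HCC mice. The log2 fold change was 4.28 ± 1.08 (SE, adjusted p = 0.0189 in edgeR's quasi-likelihood test). Most non-HCC mice were at 0, which stands for fewer than 10 UMIs, so the size of this fold is not fixed. miR-6950-5p had 25 to 70 UMIs in HCC mice, with a median of 47.5, and 21, 14, 10, 10 and 11 in non-HCC mice. In raw UMIs each HCC mouse was above each non-HCC mouse, though on the spike-in scale 7 of 8 were, and the log2 fold change was 2.79 ± 0.73 (SE, adjusted p = 0.0202 in edgeR's quasi-likelihood test).

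The other called members with UMIs in non-HCC mice were miR-7031-5p, from Sh2b3, an adaptor of cytokine signaling, with a median of 58 UMIs in the HCC group and 13 to 29 in the non-HCC group, miR-7073-3p, from Cnot1, the scaffold of the deadenylase complex, miR-6927-3p and miR-6978-3p. miR-7073-3p had 264 UMIs in HCC mouse 4, 22 to 52 in the other HCC mice and 0 to 25 in the non-HCC mice. miR-6978-3p lies in an intron of C3, the complement component secreted mainly by the liver, and had 14 to 82 UMIs in HCC mice against 21, 0, 0, 12 and 0. Their log2 fold changes ran from 2.42 to 3.52, and the adjusted p in edgeR's quasi-likelihood test from 0.0361 to 0.0474. Where most non-HCC mice were at 0, as for miR-6978-3p, the size of the fold is not fixed.

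The 9 called members without UMIs in the non-HCC mice met the filters through the HCC mice alone and had to differ. They are described only, and a fold, which has no fixed size here, is not given. miR-6897-5p, from an intron of Uggt1, a folding sensor of the endoplasmic reticulum, had 25, 36, 58, 37, 24 and 13 UMIs in 6 HCC mice, and HCC mice 3 and 7 were at 0 like the non-HCC mice. miR-7040-5p was found in 7 HCC mice, with 12 to 37 UMIs. The others were miR-6923-3p, miR-6930-5p, miR-6909-3p, miR-6958-5p, miR-6917-3p, miR-7087-3p and miR-6996-3p, found in 5 or 6 HCC mice. HCC mouse 4 had 75 UMIs of miR-6923-3p, and the other values of these members above 0 were 10 to 29. Their host genes include Erbb3 (miR-6917-3p), a receptor of neuregulins, and Notch1 (miR-6996-3p), a receptor in cell fate decisions. Leaving out 1 of non-HCC mice 1 to 4 left 3 or 4 members of the class called, and leaving out HCC mouse 2, 4 or 5 or non-HCC mouse 5 left 10, 8, 9 and 8. None of the 8 called members with UMIs in non-HCC mice was called in all of the fits that left out 1 mouse. With the similar pairs summed, 16 of the 17 were called. They include each of the 8 with UMIs in non-HCC mice, at an adjusted p of at most 0.0461 in edgeR's quasi-likelihood test. For the 9 without such UMIs this count is a description only.

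**Figure D3:**
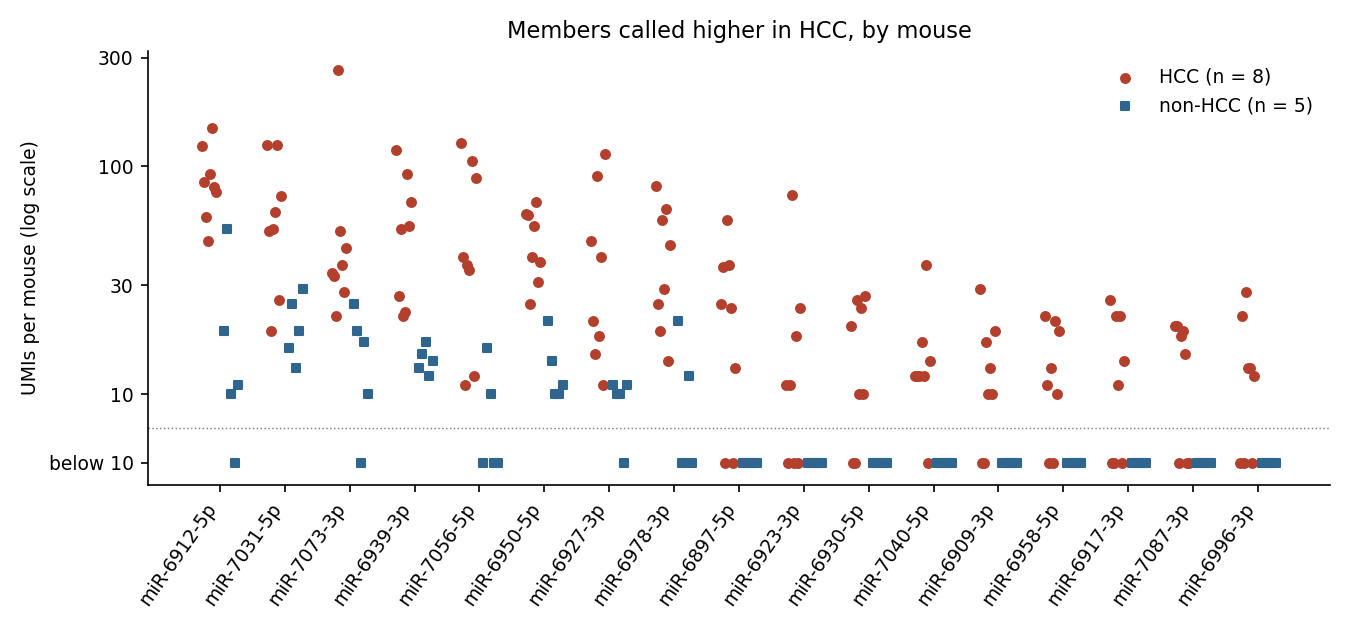
UMIs per mouse (log scale) of the 17 members called higher in HCC, with HCC mice as circles (n = 8) and non-HCC mice as squares (n = 5), and values listed as 0 drawn under the dotted line as below 10. The 8 members on the left have UMIs in non-HCC mice, and in the 9 on the right all 5 non-HCC mice are below 10 while HCC mice reach at most 75.

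Both arms of many hairpins circulated. Among in-range entries, 84.1% of the 5p and 56.5% of the 3p entries met the rule, which gave 169 5p and 105 3p members. Arm shares were taken over both arms of a hairpin as listed, members or not. The 84 arms that are no members gave 3.30% of these UMIs, and 1 of them is miR-7072-5p, the entry left out by the rule. With the 13 mice summed, 131 hairpins had more UMIs from the 5p arm and 54 from the 3p arm, and the median 5p share was 71.5%. The 5p share was over 90% in 41 hairpins and under 10% in 5. In the 89 hairpins with both arms as members, 50 had more 5p and 39 more 3p UMIs, with a median 5p share of 51.96%. The rule treats both arms alike, but more 5p arms met it. The tally over the 185 hairpins therefore rests on detection as well as on arm use.

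**Figure D4:**
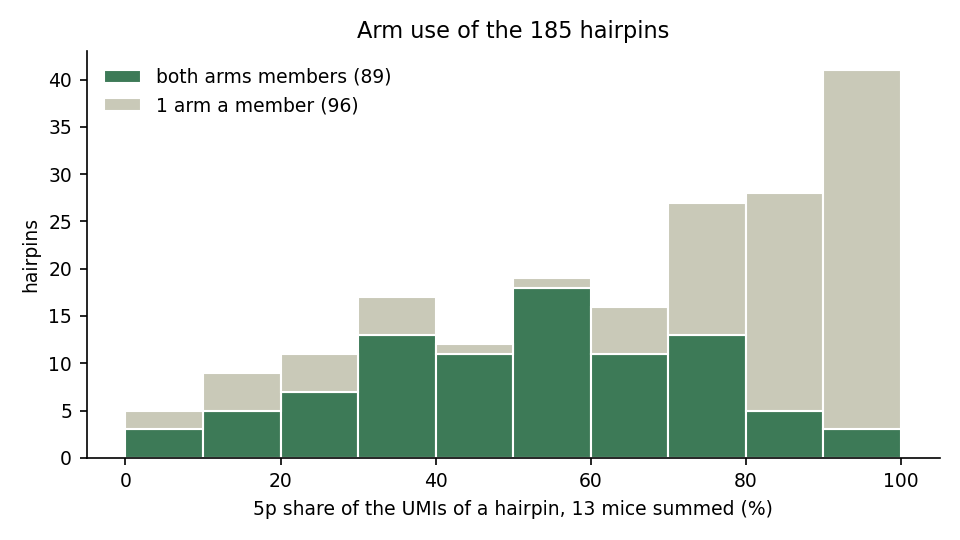
Number of hairpins (y) by the 5p share of their UMIs with the 13 mice summed (x, percent), for hairpins with both arms as members (dark, 89) and with 1 arm (light, 96). The hairpins with both arms spread around 51.96%, and the 41 hairpins over 90% are mostly those with 1 member arm.

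The hairpins with the most UMIs differed in arm. miR-6909 gave 99.6% of its UMIs from the 5p arm, 23445 against 98. miR-7015 gave 94.2% from the 5p arm. miR-7045, with 365 against 4762 UMIs, gave 7.12% from it, and miR-6945 gave 2.25% and miR-6967 18.8%. So the 5 hairpins that led the class were split between the arms, and each kept its leading arm in the median of both groups. The 5p share of miR-7045 was 2.83 to 26.1% in HCC and 4.23 to 6.45% in non-HCC mice, and that of miR-6945 was 0 to 22.4% and 0 to 2.56%. miR-6909-3p, the minor arm of its hairpin, was found in 6 HCC mice with 10 to 29 UMIs and in no non-HCC mouse, while the major arm was not called.

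Of the 89 hairpins with both arms, 69 had the same leading arm in the group medians and 20 did not. The 20 include miR-7071 and miR-7032, which had no leading arm in the non-HCC group, with a median 5p share of 50.0%. They also include miR-7063, which differed little, with 49.5% in HCC and 50.6% in non-HCC mice. The most abundant of the 20 was miR-6912, with a median 5p share of 79.0% in HCC and 40.4% in non-HCC mice, followed by miR-6927, with 45.6% and 79.2%. Their called arms were miR-6912-5p and miR-6927-3p, and share and call rest on the same UMIs. Most of the 20 rest on arms near 10 UMIs, where 1 arm at 0 sets the share to 0 or 100%. Summed over all arms of the 185 hairpins, the 5p share was 62.1 to 73.6% in HCC mice, with a median of 64.7%, and 62.5 to 68.2% in non-HCC mice, with a median of 66.1%. Over the member arms only, the medians were 65.4% and 66.3%, with ranges of 64.3 to 73.5% and 62.8 to 68.4%. Over all arms without the miR-6909 hairpin the medians were 60.4% and 51.1%, with ranges of 48.7 to 66.4% and 45.3 to 55.7%, so that the groups still overlapped.

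Of 6 arms of miR-877, miR-1224 and miR-702, mirtrons outside these numbers, none was called in either direction, and 0 had an unadjusted p under 0.05 in edgeR's quasi-likelihood test. miR-877-3p, with the most UMIs of these, had 89 to 246 UMIs in the HCC group and 151 to 438 in the non-HCC group. On the spike-in scale edgeR's quasi-likelihood test called 0 of 6 red cell miRNAs and 0 of 5 platelet and leukocyte miRNAs, with 0 and 1 at an unadjusted p under 0.05, and called 4 of the 5 liver miRNAs higher in HCC mice. With DESeq2 and its own size factors 2 red cell and 4 platelet and leukocyte miRNAs were lower in HCC mice, and with the TMM factors in edgeR 0 and 4.

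In the F2 table the class was found at lower depth. The 53 columns held 205194 to 3020311 miRNA UMIs, with a median of 846338, and none reached the depth of a C3H mouse. Even so, 78 to 245 members were found per column, with a median of 172. The class made up 0.204 to 2.37% of the miRNA UMIs, with a median of 0.704%, where C3H mice had 0.0343 to 0.109%. The tables differ at least in strain, sex, HCC label, way and time of the blood draw, and depth. These cannot be told apart, and no test was made between the tables. Of the member entries, 37.3% were at 0 and 33.7% held 10 to 19 UMIs, and the median entry above 0 was 18 UMIs, against 19 in C3H mice.

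The members divided into widely and rarely found ones. All 274 are listed in the F2 table, and 19 were found in all 53 columns, 179 in at least 27 and 4 in none. The median member was found in 36 columns and the median other miRNA tested in 44. miR-6915-5p (median 46 UMIs), miR-6905-5p (median 50 UMIs) and miR-6923-5p (median 41 UMIs) were found in all 53, although in C3H mice miR-6923-5p was found in 7 of 13. Found in none were miR-6945-5p, miR-6908-5p, miR-7018-3p and miR-7083-3p. Members found in all 13 C3H mice were found in a median of 40 F2 columns, and those found in 5 C3H mice in a median of 24. The members with calls in C3H mice were found in 1 (miR-6996-3p) to 50 (miR-6923-3p) columns, with a median of 29.

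**Figure D5:**
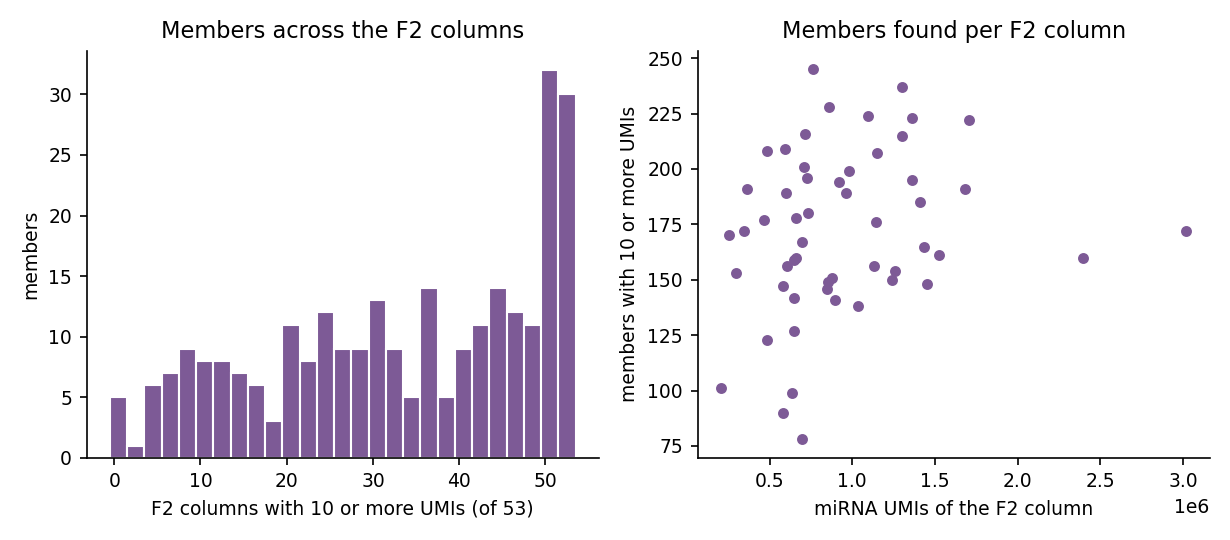
Left, number of members (y) by the number of the 53 F2 columns in which they had 10 or more UMIs (x), and right, members found (y) against the miRNA UMIs of each F2 column (x). The 19 members found in all 53 columns stand at the right end of the left plot, and the columns run from 78 to 245 members.

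The leading members were partly others than in C3H mice. miR-6909-5p ranked first in both tables, and was found in 45 F2 columns with up to 3557 UMIs and a median of 913. Of the 10 leading members, 3 were shared, with miR-6945-3p and miR-7045-3p as the others. Ranks 2 to 4 in the F2 columns went to miR-7068-5p, miR-7081-5p and miR-7071-5p, which ranked 28, 112 and 75 in C3H mice. miR-7068-5p, from a whole intron of Cherp, had 52 to 510 UMIs in the F2 columns, with a median of 270, and 10 to 66 in C3H mice. miR-7081-5p, from an intron of Dnmt1, the maintenance DNA methyltransferase, had a median of 105 and up to 1735 UMIs, and miR-7071-5p had 36 to 657 with a median of 211. The F2 median of each of these 3 was above its highest C3H value, at a lower depth. miR-7015-5p, the fourth of the class in C3H mice, was found in 30 F2 columns with at most 35 UMIs. The 5p share over all arms of the 185 hairpins was 65.98 to 78.7% in the F2 columns, with a median of 72.9%, and over the member arms only 72.8 to 81.2%, with a median of 77.3%.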

How the data were processed

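Small RNA libraries with molecular barcodes were made from mouse plasma. By the study's methods, the authors aligned reads to GRCm38, annotated miRNAs by miRBase 20 and collapsed barcodes to UMIs. The submitters' processing notes name FastQC and Bowtie2. The authors deposited raw UMI counts per miRNA, without normalization, for 13 C3H columns, matched to mice by their labelled names, and 53 F2 columns, used only as a group.

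Members and lists were chosen with earlier results of these data known. HCC and non-HCC mice were compared with edgeR 4.0.16 (R 4.3.3), quasi-likelihood test, Benjamini-Hochberg adjustment over the 1452 miRNAs that reached 5 UMIs in 5 or more mice, threshold 0.05, and the mean of UniSP2 and UniSP4 as library scale, after tests on simulated counts. Errors of fold changes were taken from the quasi-likelihood F. Levels per mouse are log2 of the UMIs plus 1 over the spike-in mean. UMIs count an amplified molecule once, and the spread between mice sets the precision. Alternatives used limma 3.58.1, DESeq2 1.42.0, other scales and filters, a block for the replicate number, and fits leaving out 1 mouse. The fit with similar pairs summed was chosen after seeing the data.

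Members named are the 8 with most UMIs, up to 6 called in each direction by smallest p, up to 8 found in all mice, the 5 leading hairpins with both arms, members found mostly in 1 group, the 3 found in most and in fewest F2 columns, members with a shared seed and up to 3 on each side of the rule's limit. Others named were chosen after their values were seen. Hairpins were matched by name to RefSeq (GRCm38.p6), and introns are those of GENCODE M21, with a tolerance of 2 bases. Tables were handled with pandas 2.3.3, numpy 2.4.6 and matplotlib 3.10.9 in Python 3.11.15.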

Additional observations from a re-analysis of the deposited data

Results flagged for a closer look

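Single mice lay far from the others of their group in 12 of 78 groups of values searched. The measure was the gap to the next mouse over the range of the group. Its limit gives about 1 in 20 only for independent, normally distributed values. These levels have a floor at 0 and the groups share mice, so the count is no measure of an excess over chance. Values are log2 levels on the spike-in scale. Non-HCC mouse 5 was above the other non-HCC mice in miR-6909-5p (12.08, next 10.84), miR-6945-3p (9.53, next 8.37), miR-7045-5p (5.03, next 4.29), miR-7054-3p (3.85, found in this non-HCC mouse alone) and miR-7018-3p (4.30, likewise). In raw UMIs this mouse was not above the others in miR-7045-5p, with 24 against up to 29. Its spike-in mean was 182485, the lowest of its group, and the part of that mean in these levels was not tested. Other mice stood apart because they were the only ones of their group at 0, namely non-HCC mouse 3 in miR-7073-3p (-0.41), non-HCC mouse 4 in miR-6927-3p (-0.32), HCC mouse 1 in miR-6915-5p (-0.21) and miR-7015-3p (-0.21), and HCC mouse 7 in miR-7040-5p (-0.97), or the only ones found, namely non-HCC mouse 3 in miR-6945-5p (3.18, 11 UMIs) and non-HCC mouse 1 in miR-6908-5p (3.19, 13 UMIs). In the F2 columns, miR-7046-3p, which is not listed for the C3H mice, was found in 28 columns with at most 31 UMIs.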

How the results depend on the processing

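The count of members called higher, 17 on the spike-in scale, was 11 with the TMM factors, 10 with DESeq2 and its own size factors, 10 with limma on log2 values, 4 with limma and 5 UMIs added, and 9 with a filter of 20 UMIs, and 3 to 19 with 1 mouse left out. The count of members called lower, 0, was 1 with the TMM factors and 2 with DESeq2 and its own size factors. The class median log2 fold change was 0.49 to 0.89 with 1 mouse left out. With the replicate block, 12 members were called higher and the median was 0.41, but the numbers do not pair the mice, which are separate animals (correlations of same-numbered mice from -0.13 to 0.07, and 1 of 5 HCC mice correlated best with its own number). The difference in 5p share between the group medians (HCC minus non-HCC) was -1.43 percentage points, -0.99 with member arms only (chosen after seeing the data) and 9.23 without the leading hairpin. Members found per F2 column had a median of 172, and of 72 at 20 UMIs. The cause of these moves was not tested. The alternative of F2 columns at C3H depth gave no value, since no column reached it.

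No called member changed sign in any setting. For the 9 called members without UMIs in the non-HCC mice the sign was fixed in advance, so this says nothing about them. Among the uncalled members, log2 fold changes turned negative for miR-6960-5p with the TMM factors (-0.12) and with DESeq2 and its own size factors (-0.0745). They did so for miR-6967-5p with the TMM factors (-0.51), DESeq2 and its own size factors (-0.46), limma (-0.15) and limma with 5 UMIs added (-0.0766), for miR-7015-3p with the TMM factors (-0.0353) and for miR-7081-3p with the replicate block (-1.98). For miR-6905-5p the values were -0.24 with the TMM factors, -0.51 with limma, -0.00758 with 5 UMIs added and -1.23 with the replicate block. With 1 mouse left out, the ranges were -0.59 to 0.0947 for miR-6909-5p, -0.54 to 0.11 for miR-6945-3p and -0.34 to 0.0620 for miR-7080-3p, each above 0 without non-HCC mouse 5, and -0.20 to 0.24 for miR-6967-5p, -0.49 to 0.48 for miR-6905-5p and -0.12 to 2.37 for miR-7081-3p. Entries near 10 UMIs limit what can be told from 0.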
